A study of Mus musculus with 4 samples.

Results

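The transcripts described here were those of the CDK inhibitor genes other than p21 (Cdkn1b, Cdkn1c, Cdkn2a, Cdkn2b, Cdkn2c and Cdkn2d), together with Mtap, the gene next to Cdkn2a on chromosome 4. Members were all gene probes whose name in the scanner files was one of these 7 genes, which gave 10 of the 41174 gene probes on the array. Expression was measured in 4 cultures of mouse embryonic fibroblasts (MEFs) in logarithmic growth. G1KO cells were CycG1-/- and lacked cyclin G1 (all coding exons of Ccng1 were removed, per the methods), G2KO cells were CycG2-/- and lacked cyclin G2 per the labels, and each had its own wild-type (WT) culture, CycG1+/+ or CycG2+/+. All were labelled C57BL/6J, except that 1 label field of the G2KO pair reads C57BL/7J. Each knockout was hybridised with its WT on 2 arrays of 2 colours with the dyes exchanged, so a comparison had 1 culture per genotype and no replicate check, and ± is the technical SD between the 2 arrays. MEFs are a mixed primary population from whole embryos, and in such bulk RNA fewer cells of a type cannot be told apart from less RNA per cell.

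The checks on the cultures came first. The brighter Ccng1 probe had a log2 ratio of knockout over WT of -6.67 ± 0.13 in the G1KO comparison. The Ccng2 probe was not reduced in the RNA labelled G2KO (0.28 and -0.10 on the arrays), and whether that probe lies in the deleted part was not analysed here. All 4 Y-linked genes examined were well above background in both WT cultures and none was in either knockout culture. Xist was higher in both knockouts. By these transcripts both WT cultures read as male and both knockout cultures as female. Sex thus differed together with genotype in each pair, and their parts in the ratios below cannot be told apart. Fibroblast markers were well above background in 12 of 12 genes in every culture.

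CDK inhibitors are small proteins that restrain the kinases of the cell cycle. The Ink4 family, encoded by Cdkn2a (p16), Cdkn2b (p15), Cdkn2c (p18) and Cdkn2d (p19), binds CDK4 and CDK6 and keeps D-type cyclins from activating them. The Cip/Kip family, which includes Cdkn1b (p27) and Cdkn1c (p57), binds assembled cyclin-CDK complexes. Cdkn2a also encodes Arf from a separate first exon, and Arf restrains Mdm2 and so stabilises p53. Cdkn2a and Cdkn2b products accumulate in fibroblasts during prolonged culture. The labels give no passage or time in culture, a code in the names of the deposited files that may stand for it was not the same for all cultures and was not used, and its part in the ratios below was not tested. Mtap encodes the phosphorylase of the methionine salvage pathway and is often lost together with its neighbours in tumours.

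Mtap, Cdkn2a and Cdkn2b lay side by side, and all their probes read lower in G2KO than in its WT, so the sequences before their starts are shown. They are the 250 bases before each start in RefSeq on GRCm38.p6, written 5′ to 3′ on the strand of the gene, with every CG dinucleotide in capitals. The upstream Cdkn2a start is that of the Arf transcript and the downstream one that of p16.
Mtap, chr4:89137120-89137369, plus strand: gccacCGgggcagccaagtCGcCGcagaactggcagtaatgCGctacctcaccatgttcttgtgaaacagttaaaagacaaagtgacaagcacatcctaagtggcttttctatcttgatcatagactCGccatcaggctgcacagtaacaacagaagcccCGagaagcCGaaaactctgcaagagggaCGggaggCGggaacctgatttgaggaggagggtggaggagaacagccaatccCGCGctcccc
Cdkn2a downstream start, chr4:89282193-89282442, minus strand: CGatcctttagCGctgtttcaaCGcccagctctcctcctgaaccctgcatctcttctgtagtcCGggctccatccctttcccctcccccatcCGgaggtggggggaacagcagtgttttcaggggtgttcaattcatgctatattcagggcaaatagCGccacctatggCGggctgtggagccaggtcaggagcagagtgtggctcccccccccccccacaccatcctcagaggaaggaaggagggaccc
Cdkn2a upstream start, chr4:89294620-89294869, minus strand: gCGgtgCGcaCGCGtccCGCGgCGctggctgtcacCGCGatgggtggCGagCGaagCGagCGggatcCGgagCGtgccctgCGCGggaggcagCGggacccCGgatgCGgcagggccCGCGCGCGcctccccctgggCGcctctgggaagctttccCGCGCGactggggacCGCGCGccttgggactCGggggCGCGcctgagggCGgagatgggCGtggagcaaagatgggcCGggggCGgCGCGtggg
Cdkn2b, chr4:89311033-89311282, minus strand: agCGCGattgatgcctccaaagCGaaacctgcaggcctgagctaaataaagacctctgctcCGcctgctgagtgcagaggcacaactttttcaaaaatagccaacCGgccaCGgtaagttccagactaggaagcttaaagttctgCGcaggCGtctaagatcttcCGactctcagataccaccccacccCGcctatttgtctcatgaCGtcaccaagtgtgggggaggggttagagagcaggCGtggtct

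The upstream Cdkn2a start held 40 CG dinucleotides in its 250 bases, more than 98.7% of the 32851 RefSeq windows of that length. The downstream Cdkn2a start held 7, the Mtap start 11 and the Cdkn2b start 12, against a median of 6 over all windows. The GC box GGGCGG, searched on both strands, occurred 2 times before the upstream Cdkn2a start and in none of the other 3 windows, and 32.7% of all windows held it. Neither the E box CACGTG nor the TATA box TATAAA, again on both strands, was found in any of these 4 windows, and 6.02% and 12.4% of all windows held them. These matches describe the letters alone. The array had 1 Cdkn2a probe, and which of the Cdkn2a transcripts it reads was not analysed here.

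Probes entered the comparison of a pair when at least 1 genotype gave signal well above background on both arrays (tested probes), and all 10 member probes were well above background in all 4 cultures in both dyes. A difference was called when both arrays of the pair showed a log2 ratio of 1 or more in size, that is 2-fold, in the same direction. In the G1KO comparison 3 of 10 member probes were called, against 5.79% of all 25531 tested probes. Of these, Cdkn1c and Mtap were higher in G1KO (1.99% of all tested probes were called higher) and Cdkn2b was lower (3.8% were called lower). With median centring of the arrays in place of loess none of the 3 was called, since their ratio was then under 2-fold on 1 array each. In the G2KO comparison 4 of 10 were called, against 6.37% of all 25423 tested probes. Those 4, Cdkn1c, Cdkn2a, Cdkn2b and Mtap, were all lower in G2KO, where 4.06% of all tested probes were called lower and 2.31% higher. The median log2 ratio of the 10 probes was -0.07 for G1KO and -0.57 for G2KO, against -0.00 and -0.01 over all tested probes. The median size of their ratio was 0.32 and 0.81, against 0.21 and 0.24.

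**Figure D1:**
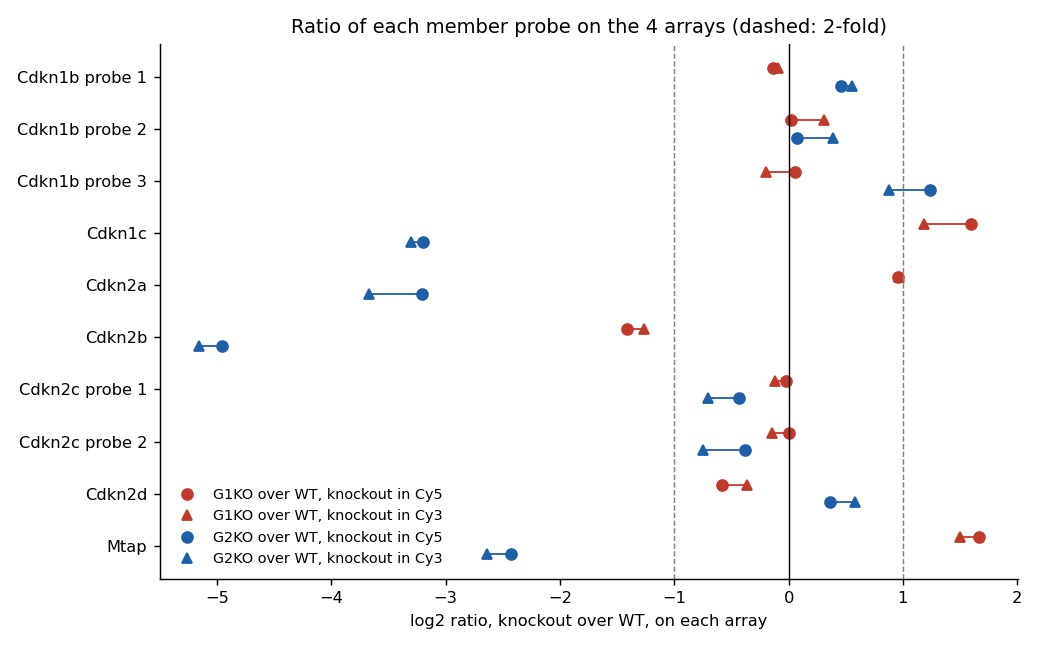
Log2 ratio of knockout over WT for each of the 10 member probes (rows) on each array, in the G1KO (red) and the G2KO comparison (blue), with knockout RNA in Cy5 (circles) or Cy3 (triangles) and dashed lines at 2-fold. The 4 probes of Cdkn1c, Cdkn2a, Cdkn2b and Mtap lay left of -2 on both arrays in the G2KO comparison, while 3 of them lay near or above 1 in the G1KO comparison.

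Cdkn2b, whose product p15 inhibits CDK4 and CDK6, was the member with the greatest difference. Its probe lay on the minus strand of chromosome 4 at 88777764 to 88777823 (build mm8). Its normalised log2 level in Cy5 and Cy3 was 13.91 and 13.92 in the WT of G2KO, 13.25 and 13.38 in the WT of G1KO, 11.97 and 11.98 in G1KO, and 8.96 and 8.75 in G2KO. The levels of the 4 cultures did not overlap, both WT cultures lay above both knockout cultures, and G2KO lay far below the rest. Its log2 ratio in G2KO over WT was -4.95 and -5.16 on the arrays, with a mean of -5.06 ± 0.15, and the level in G2KO was 33.3-fold lower. Only 6 of 25423 tested probes had a lower ratio. The G1KO over WT ratio was -1.41 and -1.26, with a mean of -1.34 ± 0.10, a level 2.53-fold lower. Set against the WT of the other pair, Cdkn2b in G2KO was still 21.9-fold lower, and the WT cultures themselves differed by 0.60 ± 0.10 on the log2 scale, less than 2-fold. Cdkn2b was the single member called in the same direction in both comparisons.

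Mtap, the salvage enzyme encoded beside Cdkn2a, was read by a probe on the plus strand at 88651540 to 88651599 of chromosome 4. Its log2 level in Cy5 and Cy3 was 13.18 and 13.26 in G1KO, 11.76 and 11.51 in the WT of G1KO, 11.38 and 11.29 in the WT of G2KO, and 8.86 and 8.74 in G2KO. The WT cultures lay close together, at less than 2-fold apart in each dye, with G1KO above them and G2KO below them. In G1KO over WT the log2 ratio was 1.67 and 1.50, with a mean of 1.59 ± 0.12. In G2KO over WT it was -2.43 and -2.64, with a mean of -2.53 ± 0.15, a level 5.78-fold lower. Between the knockouts the level differed 21.4-fold. Mtap in G2KO was also 7.12-fold lower than in the WT of the other pair.

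Cdkn2a, which encodes p16 and Arf, was read by a probe printed 10 times per array, on the minus strand at 88745872 to 88745931 of chromosome 4. Its log2 level in Cy5 and Cy3 was 13.09 and 13.04 in the WT of G2KO, 10.65 and 10.76 in G1KO, 9.80 and 9.69 in the WT of G1KO, and 9.83 and 9.42 in G2KO. The WT of G2KO stood above the other 3 cultures, and the levels of G2KO and the WT of G1KO overlapped. In G2KO over WT the log2 ratio was -3.21 and -3.67, with a mean of -3.44 ± 0.32, a level 10.8-fold lower. The 10 spots ranged from -3.29 to -3.14 on the first of these arrays and from -3.75 to -3.56 on the swapped one, so the spots agreed more closely within an array than the arrays did. Against the WT of the other pair G2KO differed by only -0.12 ± 0.21 on the log2 scale. The WT cultures differed from each other by 3.32 ± 0.04, a level 9.97-fold higher in the WT of G2KO. For G1KO over WT the ratio was 0.96 and 0.97, just under the threshold on both arrays, with single spots from 0.92 to 1.01, and it passed when the scanner software's own log10 ratio was used.

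Cdkn1c, whose product p57 belongs to the Cip/Kip family and whose gene is imprinted, was read by a probe on the minus strand of chromosome 7 at 143268238 to 143268297. Its log2 level in Cy5 and Cy3 was 11.15 and 11.15 in the WT of G2KO, 9.77 and 9.85 in G1KO, 8.67 and 8.17 in the WT of G1KO, and 7.96 and 7.85 in G2KO. The order of cultures was that of Cdkn2a, with the WT of G2KO highest, although the 4 ranges did not overlap here. In G1KO over WT the log2 ratio was 1.60 and 1.18, with a mean of 1.39 ± 0.29, a level 2.62-fold higher. In G2KO over WT it was -3.20 and -3.30, with a mean of -3.25 ± 0.07, a level 9.50-fold lower. Against the WT of the other pair the difference of G2KO was -0.52 ± 0.27, less than 2-fold in each dye. The WT cultures differed 6.64-fold.

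**Figure D2:**
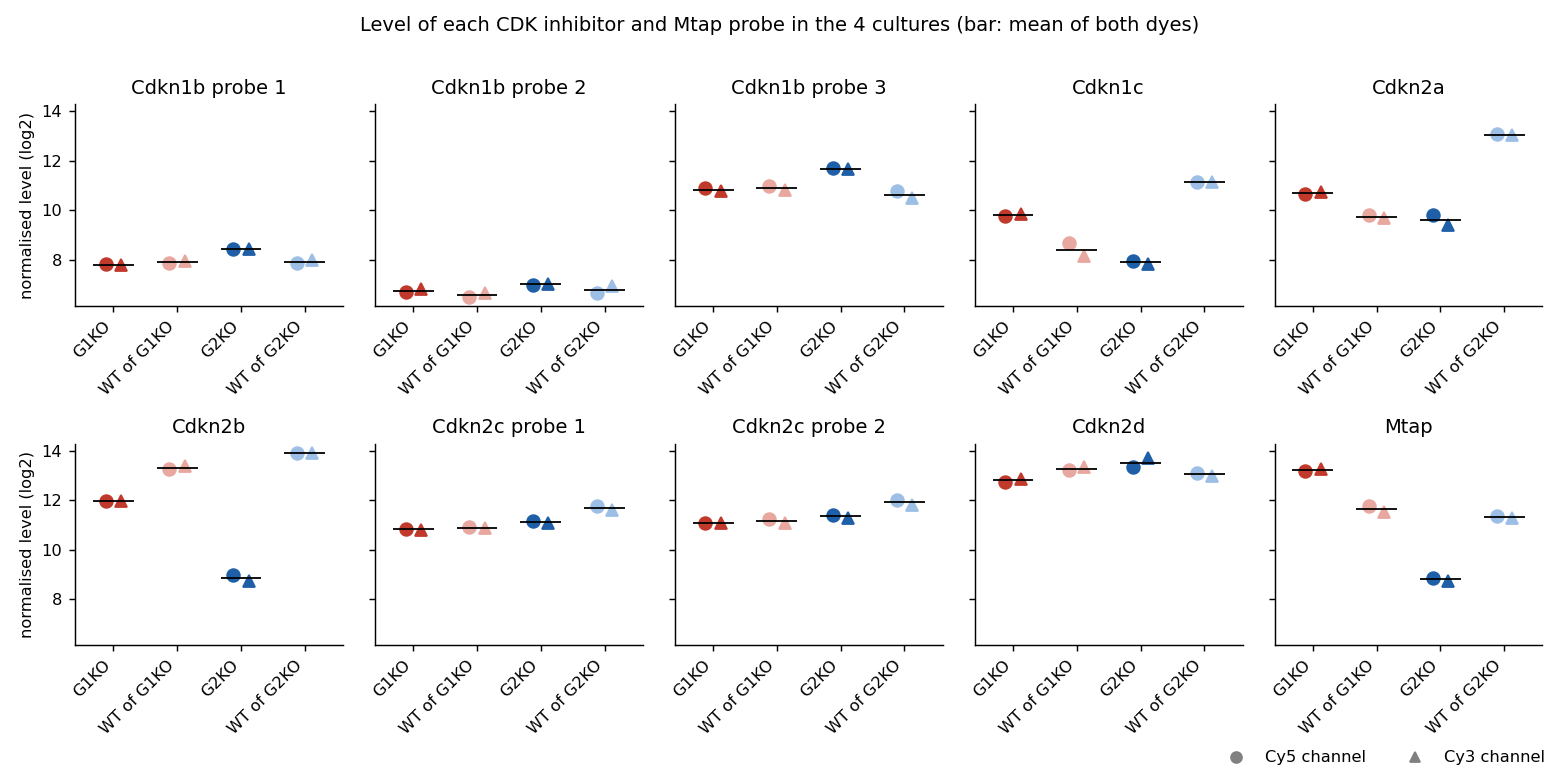
Normalised log2 level (y axis) of each member probe in the 4 cultures (x axis), in the Cy5 (circles) and Cy3 channels (triangles), with a bar at the mean of both dyes. Cdkn2b and Mtap were lowest in G2KO by more than 2-fold from every other culture, whereas Cdkn2a and Cdkn1c were highest in the WT of G2KO by more than 2-fold.

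Comparison across pairs thus separated the 4 genes called in the G2KO comparison. Between the WT cultures 2 of 10 member probes differed by at least 2-fold in each dye, Cdkn1c and Cdkn2a, against 11.0% of all 26026 probes tested. Between G2KO and G1KO 3 of 10 did, Cdkn1c, Cdkn2b and Mtap, against 8.67% of 25522 probes. Levels in different pairs were measured on different arrays of 1 slide and were aligned by normalisation, so a difference between pairs carries array differences that a ratio within an array does not. The ratio of Cdkn2a and Cdkn1c in G2KO over WT went with a high level in that WT culture, and the WT cultures cannot be ranked as the more typical with 1 culture each.

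The other Ink4 members showed smaller differences, and none was called. Cdkn2d, whose product p19 inhibits CDK4 and CDK6, had a log2 ratio of -0.58 and -0.36 in G1KO over WT, and of 0.36 and 0.58 in G2KO over WT. The means were -0.47 ± 0.16 and 0.47 ± 0.16, opposite in direction and each under 2-fold. Its levels lay between 12.75 and 13.70 in all 4 cultures in both dyes. Cdkn2c (p18) was read by 2 probes that overlapped on chromosome 4 within 109159084 to 109159165, so they are not independent readings. Their ratio was -0.07 in G1KO over WT for both, and -0.57 ± 0.19 and -0.56 ± 0.25 in G2KO over WT. The WT of G2KO was the highest culture for both Cdkn2c probes, at 1.73-fold and 1.70-fold above the WT of G1KO.

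Cdkn1b, whose product p27 is mainly controlled by protein turnover, was read by 3 probes on the plus strand of chromosome 6. All 3 were highest in G2KO, by 0.23 to 0.78 on the log2 scale above the next culture, and none was called in either comparison. The probe at 134890890 to 134890949 was the brightest, and its log2 level in Cy5 and Cy3 was 11.73 and 11.66 in G2KO, 10.98 and 10.85 in the WT of G1KO, 10.90 and 10.77 in G1KO, and 10.78 and 10.49 in the WT of G2KO. The 3 cultures other than G2KO were thus close together. The ratio of that probe in G2KO over WT was 1.24 and 0.88, with a mean of 1.06 ± 0.26, past 2-fold on 1 array alone. The probe printed 10 times, at 134886778 to 134886836, gave 0.51 ± 0.07 in the same comparison, and the dimmest probe, at 134889281 to 134889340, gave 0.23 ± 0.22. The 3 probes gave -0.12, 0.17 and -0.07 in G1KO over WT. The dimmest probe had log2 levels of 6.51 to 7.03, and the lowest levels well above background were 5.74 to 6.13. With the scanner software's own ratio the brightest probe gave 1.12 in G2KO over WT. The probe printed 10 times then gave 0.75 and the dimmest 0.61. The size of the Cdkn1b ratio thus differed between probes and with the processing, and levels of different probes cannot be set against each other.

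**Figure D3:**
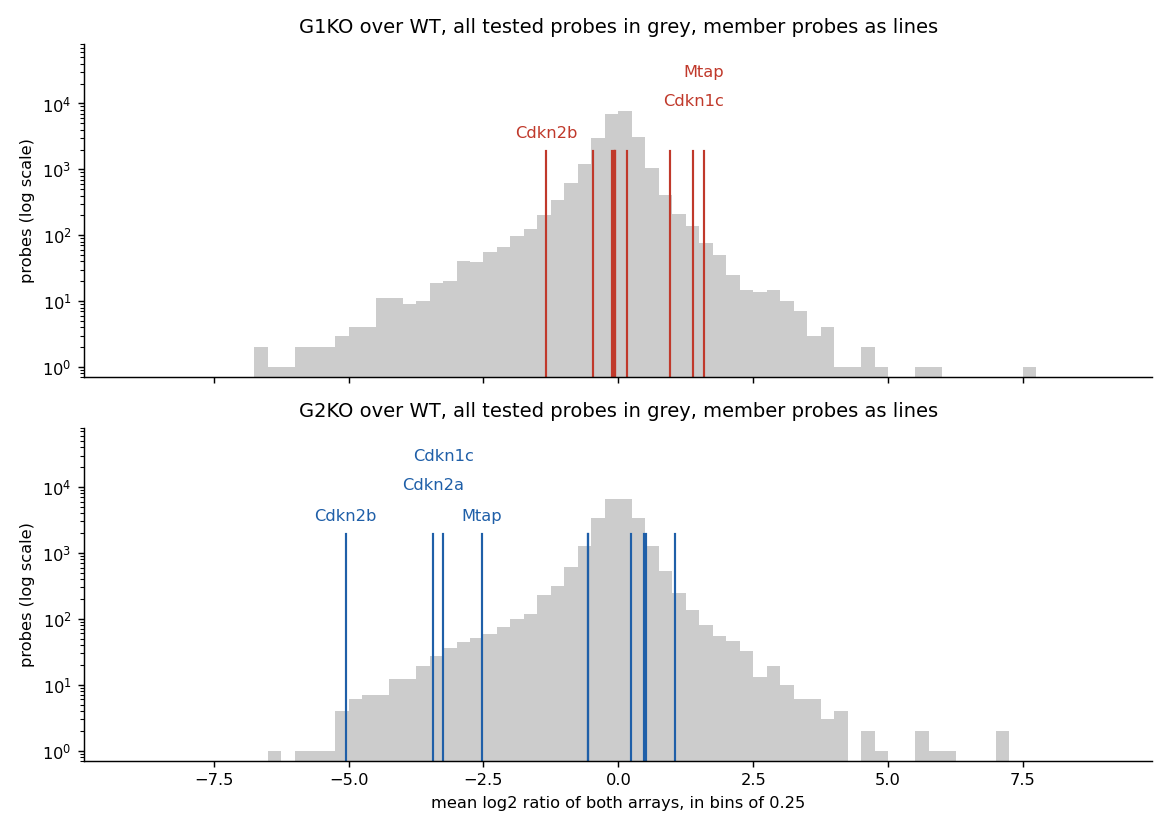
Number of tested probes (y axis, log scale) by mean log2 ratio of both arrays (x axis, bins of 0.25) in the G1KO and the G2KO comparison, with the 10 member probes as coloured lines and the called ones named. Cdkn2b at -5.06 lies at the lower end of all ratios in the G2KO comparison, whereas the called members of the G1KO comparison, from -1.34 to 1.59, lie well inside the range of all probes.

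The neighbours of Mtap, Cdkn2a and Cdkn2b on chromosome 4 were examined next. The Mtap probe lay 94.3 kb before the Cdkn2a probe and the Cdkn2b probe 31.9 kb after it. Within 2 Mb of them lay 40 probes with 30 gene names, and 21 of these probes were tested in each comparison. Of the 18 tested probes that were not members, 3 were called for G1KO and 6 for G2KO, against 5.79% and 6.37% of all tested probes. Of those 6, 4 were probes of the same gene, Mllt3, and are not independent readings. The nearest tested neighbour on the side of Cdkn2b was Dmrta1, a doublesex-related transcription factor gene, 440.1 kb from the Cdkn2a probe. It was well above background in G2KO and in no other culture. Its ratio in G2KO over WT was 3.09 and 3.42, at least 9.25-fold higher in G2KO, opposite in direction to Mtap, Cdkn2a and Cdkn2b. On the side of Mtap lay the type I interferon genes, with 13 probes, of which 4 were tested and none was called. The tested Ifna9, Ifna13 and Ifnab probes were dim, with mean log2 levels of 6.49 to 6.76 in all cultures. The lowest levels well above background were 5.74 to 6.13. Both Klhl9 probes, which lay among them, had ratios between -0.29 and 0.06 in the 2 comparisons. The nearest tested neighbours thus did not show the differences of the 3 adjacent members, though a large fall could not have shown in the dim interferon probes.

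Farther out, Mllt3, a subunit of the super elongation complex, was read by 5 probes 1500.6 to 1504.7 kb before Cdkn2a. In the G2KO comparison 4 of the 5 were called higher, at 1.49 to 1.65 on the log2 scale. Hacd4, a dehydratase of very long chain fatty acid synthesis, had 1 of 2 probes called in the G1KO comparison, at -1.46 ± 0.01, and none in the G2KO comparison. A transcript named in the files only as AK033780, at 864.3 kb before Cdkn2a, was called lower in both, at -1.46 ± 0.03 and -1.04 ± 0.01. Focad, whose probe lay within 1 kb of it, had ratios of -0.05 and -0.13. Elavl2, a neuronal RNA-binding protein gene at the far end of the interval, was called higher in G1KO by 1 of its 2 probes, at 4.93 ± 0.16.

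**Figure D4:**
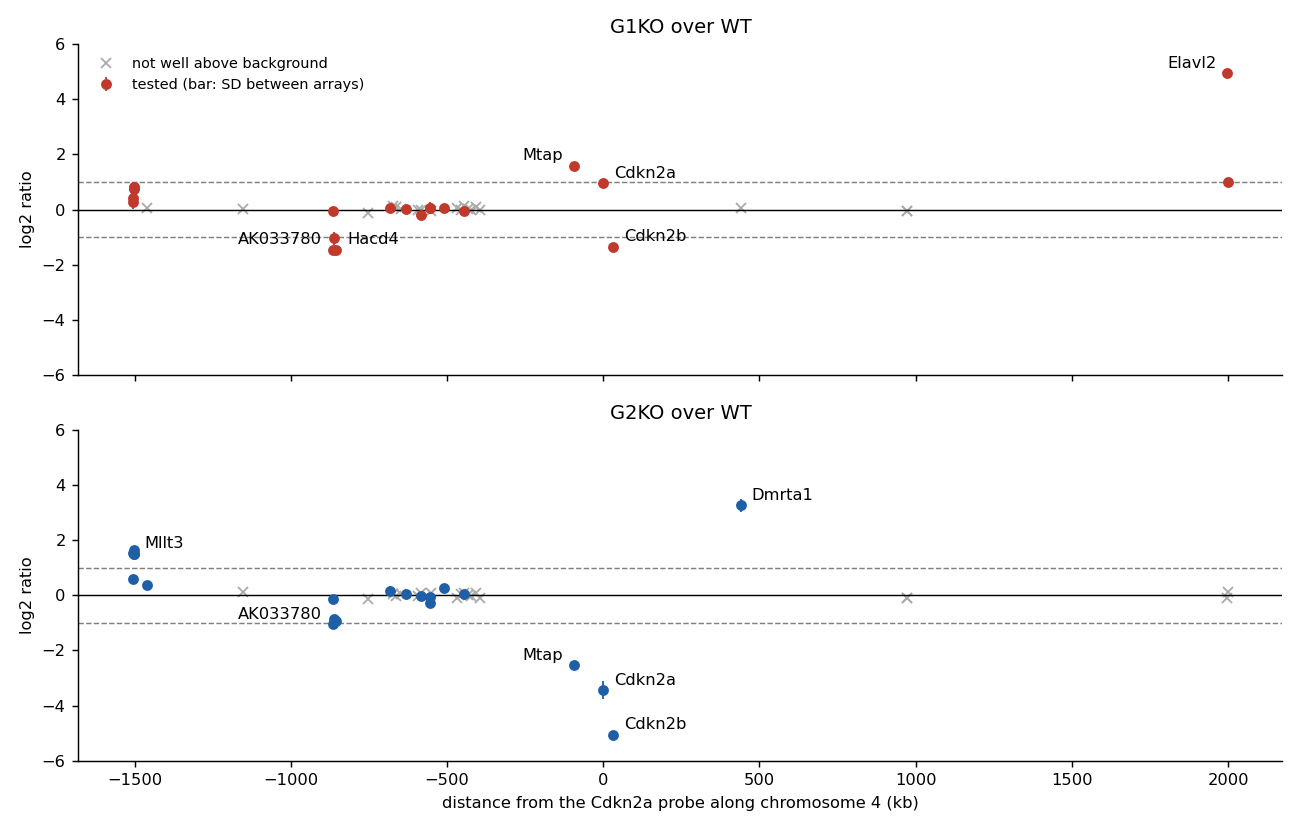
Mean log2 ratio of knockout over WT (y axis, bars show the SD between 2 arrays) by distance from the Cdkn2a probe along chromosome 4 (x axis, kb), in the G1KO and the G2KO comparison, with dim probes as grey crosses and dashed lines at 2-fold. In G2KO the 3 adjacent members lie between -2.53 and -5.06 while the tested interferon and Klhl9 probes to their left lie near 0 and Dmrta1 lies at 3.25.

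The genes with which these inhibitors act were described from lists, in which each gene was counted by its brightest tested probe and any other called probe is named. Of 10 genes of CDK4, CDK6, CDK2 and their cyclins, 1 was called in each comparison. It was Ccnd1, which encodes cyclin D1, the partner of CDK4 and CDK6, at 1.13 ± 0.00 in G1KO and 2.30 ± 0.01 in G2KO. Cdk4, the main target of the Ink4 proteins, had -0.14 ± 0.25 and 0.34 ± 0.24, and Cdk6 had -0.77 ± 0.16 and -0.86 ± 0.10, neither called. Of 13 pocket protein and E2F genes, Rb1, the retinoblastoma gene that lies downstream of CDK4, was called higher in G2KO at 2.33 ± 0.14, by the 1 of its 2 probes that was tested. Tfdp2, a dimer partner of E2F factors, was called lower in G1KO at -1.54 ± 0.08, by all 3 of its probes. E2f6, a repressive E2F factor, was not called by its brighter probe (-0.12 ± 0.07 in G2KO), but its other probe was called lower there at -1.21 ± 0.13. The other 10 genes of that list had no called probe in either comparison.

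The Arf arm was read by 6 genes. None was called in the G1KO comparison, and 2 were called higher in G2KO. These were Cdkn1a, the p21 gene, at 2.75 ± 0.13, and Mdm2, the ubiquitin ligase restrained by Arf, at 1.69 ± 0.01. Trp53, which encodes p53, had 0.46 ± 0.05 and was not called. The log2 level of Cdkn1a in Cy5 and Cy3 was 12.69 and 12.73 in G2KO, 12.41 and 12.39 in the WT of G1KO, 11.58 and 11.69 in G1KO, and 10.07 and 9.85 in the WT of G2KO. The WT of G2KO thus stood below the other 3 cultures for the p21 gene, whereas it stood above them for Cdkn2a and Cdkn1c. In G1KO over WT the Cdkn1a ratio was -0.77 ± 0.07, not called.

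Among 27 Polycomb genes and other regulators of the Ink4 locus, 1 was called for G1KO and 2 for G2KO by the brightest probe. Hmga2, a chromatin protein known to restrain the Ink4 locus, had 1 of its 3 probes called higher in G1KO as well, at 1.30 ± 0.21, while its brightest probe had 1.11 ± 0.39 and was not called. Tbx3, a T-box repressor known to act on the Arf promoter, was higher in both, at 2.46 ± 0.03 and 2.99 ± 0.12, by the 1 of its 2 probes that was tested. Id1, an inhibitor of helix-loop-helix factors known to restrain p16, was higher in G2KO at 1.57 ± 0.09. Bmi1 and Ezh2, core Polycomb repressors, were not called, with 0.62 ± 0.11 and 0.74 ± 0.03 in G2KO. The median of the list, with 1 probe per gene, was 0.19 in G1KO and 0.22 in G2KO, against -0.00 and -0.01 over all tested probes. The list mixes genes of different effect on the locus, so its median gives no direction of regulation.

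Of 13 tested genes for TGF-beta, SMAD and FoxO inputs to Cdkn2b and Cdkn1b, not all of them inducers, 1 was called higher in G1KO and 2 lower in G2KO. Foxo1, a forkhead factor, was higher in G1KO at 1.10 ± 0.02 and lower in G2KO at -1.53 ± 0.07. Tgfb3, a TGF-beta ligand, was lower in G2KO at -3.21 ± 0.01. Tgfb1 had 0.06 ± 0.20 and 0.10 ± 0.17. None of 10 genes of p27 turnover was called in either comparison, and Skp2, the receptor that marks p27 for degradation, had 0.55 ± 0.09 and -0.12 ± 0.04.

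For Mtap, the list of methionine salvage and polyamine genes held 11 genes with Mtap itself. Beside Mtap, 1 was called in the G1KO comparison, Sms, which encodes spermine synthase, at 1.40 ± 0.25 by 1 of its 3 probes, and none in the G2KO comparison. The enzymes that follow Mtap in the pathway, Mri1 and Apip, had -0.25 ± 0.12 and -0.39 ± 0.10 in G1KO and 0.42 ± 0.04 and 0.06 ± 0.12 in G2KO. Of the 7 tested genes of the imprinted domain that holds Cdkn1c, Cdkn1c was the single one called in either comparison, and the list had a median of -0.13 in G1KO and 0.06 in G2KO.

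Cell type markers differed within both pairs and also between the WT cultures. The summed log2 level of the mesothelial and epithelial markers was 17.95 in the WT of G1KO and 10.98 in the WT of G2KO. That of the neural and glial markers was 13.99 and 11.73 in these WT cultures. In G2KO over WT 7 of 12 fibroblast markers were called lower by their brightest probe and 9 of 12 by any probe, as Fn1 and Fbn1 were called by another probe at -1.50 and -1.31. Their median was -1.38 over the brightest probes, and their summed log2 level was 17.78 against 19.26. Pdgfra, a growth factor receptor of fibroblasts, had -4.63 ± 0.09 by 1 of its probes and -0.59 by the other. In the same comparison 5 of 8 tested neural and glial markers were called higher, with a median of 4.48 and a summed level of 15.94 against 11.73, among them Sox2 at 5.59 ± 0.35 and En2 at 7.02 ± 0.11, while Gfap and Fabp7 were not well above background. In G1KO over WT 6 of 9 tested mesothelial and epithelial markers were called lower and 1 higher, with a median of -2.79 and a summed level of 15.86 against 17.95. In that comparison 2 fibroblast markers were called higher and 1 lower of 12, and 2 of 6 neural markers were called higher. The summed level in G1KO against its WT was 18.49 against 18.83 for the fibroblast markers. For the neural and glial markers it was lower in G1KO, at 13.47 against 13.99. Of the 4 endothelial, 3 blood and 4 skeletal muscle markers on the array, none was called in either comparison, and at most 2 of a list were tested. The part of these cell types in the ratios of Cdkn1c, Cdkn2a, Cdkn2b and Mtap was not tested.

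The genes whose levels over the 4 cultures were most like those of the 4 members called in G2KO were found by the root mean square difference of 8 centred log2 channel levels, over 26718 probes. For Cdkn2a they were Col11a1, a fibrillar collagen (0.11), Ptpre (0.22) and Fbxo32 (0.24). For Cdkn1c they were Sox9, a chondrogenic factor (0.20), Adm (0.20) and Mfap2 (0.22). For Cdkn2b they were Arhgdib (0.43), Lipo3 (0.44) and Ptgs1 (0.49). For Mtap they were Rgs16 (0.34), Mpped2 (0.42) and Plpp3 (0.42). Each of these lists held different genes, and the nearest genes of Cdkn2b and Mtap lay farther away than those of Cdkn2a and Cdkn1c. The Mtap, Cdkn2a and Cdkn2b profiles were not among each other's 3 nearest. The 8 values come from 4 cultures in 2 dyes and are a description of these cultures. Each match is that of a single probe. Col11a1, Ptpre, Sox9, Mfap2, Lipo3 and Mpped2 had other probes, whose likeness is not given here.

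**Figure D5:**
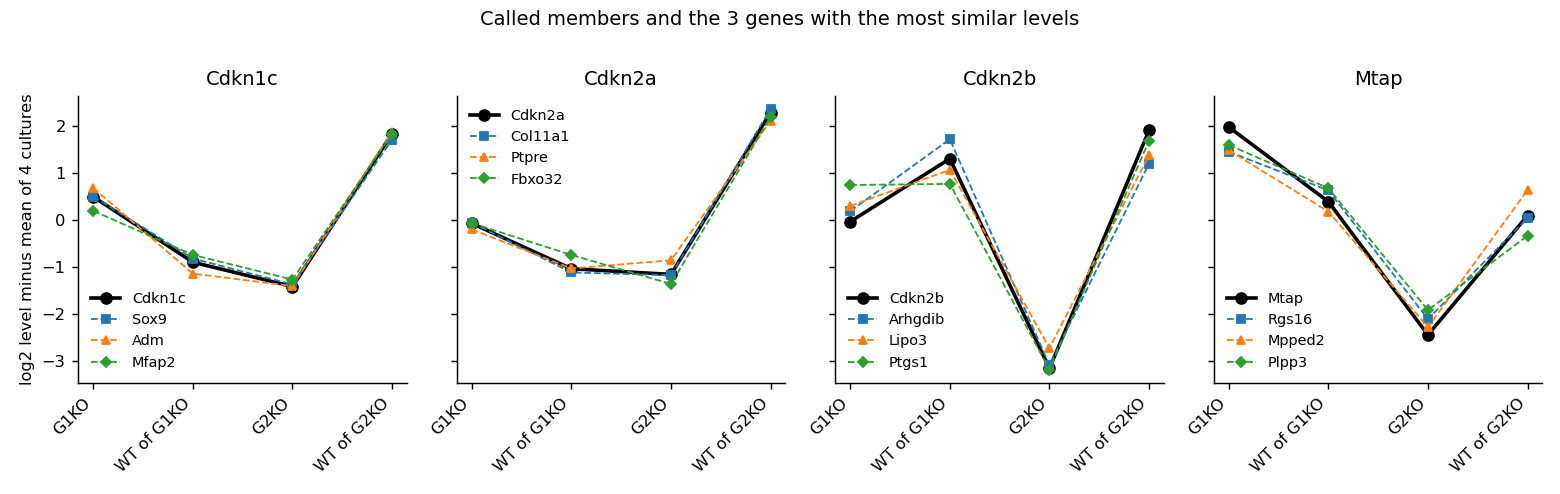
Log2 level minus the mean over the 4 cultures (y axis) for Cdkn1c, Cdkn2a, Cdkn2b and Mtap (black) and the 3 genes with the most similar values (coloured), by culture (x axis), as means of both dyes, with lines only joining points of a gene. The curves of Cdkn2a and Cdkn1c peak in the WT of G2KO, and those of Cdkn2b and Mtap have their lowest point in G2KO.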

How the data were processed

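Cy3- and Cy5-labelled cRNA, made by oligo-dT priming and T7 amplification, was hybridised to Agilent mouse arrays. The authors read the arrays with the software Agilent Feature Extraction (10.5.1.1 per the file headers, 9.1 in the submitters' processing notes). The deposited intensity values are spot and local background brightness on a linear scale, with no normalisation. The deposited log10 ratios of the scanner files and of the authors' series table were used only as alternatives. The deposited flags for outlying and dim spots were used as filters, and those for saturated spots only to count them. The labels call the second array of a pair a dye swap, so it is no replicate, and no p-value was computed.

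Intensities were corrected with normexp (offset 50) and normalised by loess within arrays and Aquantile between arrays in limma 3.58.1, R 4.3.3. Control and outlier spots were left out, spots of a probe were averaged and ratios were turned to knockout over WT. The procedure was tested on simulated data. Over tested probes the SD between paired arrays was 0.131 and 0.129 (root mean square, log2), between 25366 and 27757 of 43379 gene spots per channel were well above background and none was saturated. The number of arrays limits the precision. A bound on a fold sets the bright genotype against the dim one. In each dye, a dim value under the lowest signal well above background was replaced by that signal. Genes were named through RefSeq for GRCm38.p6, and probe positions come from the array design (mm8). All probes of the 7 genes are given, and of each list the genes called by their brightest tested probe, at most 4 by size, with a few known partners and the genes called by another probe alone. The members, lists and rules were chosen with earlier results of these data known. Alternatives were other background corrections and normalisations, both log10 ratios, other filters and thresholds, and single arrays or dyes.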

Additional observations from a re-analysis of the deposited data

Results flagged for a closer look

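For 5 of the 10 member probes both arrays of the G1KO pair went one way and both arrays of the G2KO pair the other. This rule takes opposite signs at any size. The share of all tested probes that meet it was not counted, so the count of 5 is not a result about the members. The difference between the pairs was not tested, as each genotype had 1 culture. The G1KO ratio minus the G2KO ratio, on the log2 scale, was 4.64 for Cdkn1c, 4.40 for Cdkn2a and 4.12 for Mtap. It was -0.94 for Cdkn2d and -0.63 for the Cdkn1b probe printed 10 times, and both ratios of those probes were under 2-fold. Of 24143 probes tested in both comparisons, 411 were called in both, and 134 of these were called higher in G1KO and lower in G2KO, as Cdkn1c and Mtap were.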

How the results depend on the processing

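The number of member probes called in the G1KO comparison was 3. It was 0 with median centring in place of loess, where the mean ratios of Cdkn1c and Cdkn2b were 1.43 and -1.30 and the SD between the arrays 1.11 and 1.03, and 0 with a 4-fold threshold. With either array alone it was 3, and with the scanner's or the authors' log10 ratio it was 4, as Cdkn2a then passed (up to 1.09). In the G2KO comparison it was 4, and 4 to 5 with single arrays, as 1 Cdkn1b probe passed on 1 of them. All other settings gave 4, except the mean of both arrays at 2-fold or more, which gave 5. Between the WT cultures the count was 2 in every setting and in either dye alone, and between the knockouts it was 3 to 4, as Cdkn2a passed 2-fold in Cy3 alone and without normalisation between arrays. No called member changed direction in any setting. Over all probes, 813 and 955 were called with median centring and 2850 and 3392 with the scanner's ratio, against 1479 and 1619, and 385 and 467 at 4-fold. No paired analysis was possible because each comparison had 1 culture per genotype. Slide and scan could not be fitted, since all 4 arrays lay on 1 slide.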
